A study of Mus musculus with 12 samples.

Results

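The Cyp4a genes encode liver cytochrome P450 enzymes that hydroxylate the terminal (omega) carbon of medium- and long-chain fatty acids. The hydroxy acid is then oxidised by alcohol and aldehyde dehydrogenases to a dicarboxylic acid, which is shortened in peroxisomes. Cyp4a10 and Cyp4a14 are among the classical targets of PPARα, the nuclear receptor that senses fatty acids in liver, whereas Cyp4a12a is expressed mainly in male mice and is a principal arachidonic acid omega-hydroxylase. The values described here are those of 6 genes, Cyp4a10, Cyp4a12a, Cyp4a12b, Cyp4a14, Cyp4a31 and Cyp4a32. All non-control probes whose RefSeq record belongs to one of these genes were taken, which gave 10 probes of 39429 on the array. Cyp4a10 and Cyp4a31 had 3 probes each, and each of the other genes had 1.

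The mice were male db/db animals, which lack a functional leptin receptor in all tissues and become obese and diabetic, and the labels give their age as 8 weeks. The tissue was liver. In one experiment, MgH2, a solid that releases H2 on contact with water, was given daily through a stomach tube (0.9 mg/kg) for 1, 3 or 7 days, and by the study's methods its controls received Mg(OH)2. In the other, H2-water (0.8 mM) was drunk for 14 days, and its controls drank degassed water. Each of the 12 two-color arrays (3 per group) carried a treated pool in Cy5 and a control pool in Cy3, and a pool mixed the RNA of 3 mice, so the arrays measure the spread between pools and not between single mice. No array had the dyes exchanged, so a probe's own dye bias and the treatment cannot be told apart in a single ratio, whereas that bias cancels in a difference between groups. The number of arrays limits the precision.

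On each array, 51.8% to 56.5% of spots were well above background in both channels, and so were all 10 Cyp4a probes on all 12 arrays, with no saturated or marked spot. The 6 hepatocyte markers were above background in every group. The arrays lay on 4 slides: all 1 day arrays shared 1 slide with replicate 1 of 3 days, and the 14 day arrays had a slide of their own. By the headers, the 14 day arrays also had their own version of Feature Extraction, the software that wrote and dye-normalized the intensities. The control channels of arrays with the same replicate number deviated together between 1, 3 and 7 days (Pearson's r 0.329 to 0.674 over 18397 probes, 9 pairs), whereas their treated channels did not (r −0.296 to 0.175). The labels do not say that the same control pools were used at the 3 times. The 3 comparisons with control may therefore share control RNA and are not treated as independent of each other.

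The 6 genes lie close together in a cluster on chromosome 4 in the RefSeq annotation, in the order Cyp4a12a, Cyp4a12b, Cyp4a14, Cyp4a10, Cyp4a31 and Cyp4a32, with Cyp4a30b between Cyp4a12b and Cyp4a14. Because the family is close in sequence, a probe may also bind RNA of a neighbouring gene, and whether it did was not tested. The sequence before the start of transcription was at hand for 1 of the 6 genes, Cyp4a32. It is shown as an example of a promoter of the cluster, 5′ to 3′ on the plus strand, from RefSeq on GRCm38.p6, chr4:115600688-115600937. The capitals mark TTTATA, which is the motif TATAAA read on the minus strand, at −113 to −108 from the start.

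Cyp4a32: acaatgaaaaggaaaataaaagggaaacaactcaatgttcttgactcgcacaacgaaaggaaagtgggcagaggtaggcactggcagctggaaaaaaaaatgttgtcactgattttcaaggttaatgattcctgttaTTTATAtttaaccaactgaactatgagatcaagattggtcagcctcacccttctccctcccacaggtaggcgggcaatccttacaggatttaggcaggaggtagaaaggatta

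TATAAA was found on either strand in 12.4% of the 32851 promoter windows of 250 bases. The half-site of nuclear receptors, AGGTCA, occurred in 14% of them and the spaced pair AGGNCANAGGNCA, the form to which PPARα binds with its partner RXR, in 0.338%. Neither of these letter strings was found on either strand of the Cyp4a32 window.

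The Cyp4a probes moved as 2 sets. The 8 probes of Cyp4a10, Cyp4a14, Cyp4a31 and Cyp4a32 lay below their controls on every array after 1 day of MgH2 and above them on every array after 3 days, and remained above 0 on average after 7 days of MgH2 and after 14 days of H2-water. The probes of Cyp4a12a and Cyp4a12b were below their controls on all 9 arrays of MgH2 and furthest below after 7 days. The shares of all probes with these patterns over several days are not given here. The 3 times of MgH2 may share control pools, so their arrays are not independent signs. The direction at 1 day depended on the processing: from raw intensities with normexp and loess, 6 of the 10 probes were below 0 on all 3 arrays, and the means of Cyp4a14 and of the Cyp4a10 probe A_51_P254895 were 0.01 and 0.01, each with 2 of 3 arrays above 0. Values are log2 ratios of the treated over the control signal of one array, as deposited, unless stated otherwise. Called means an adjusted P under 0.05 in limma, with Benjamini-Hochberg adjustment over all probes tested.

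**Figure D1:**
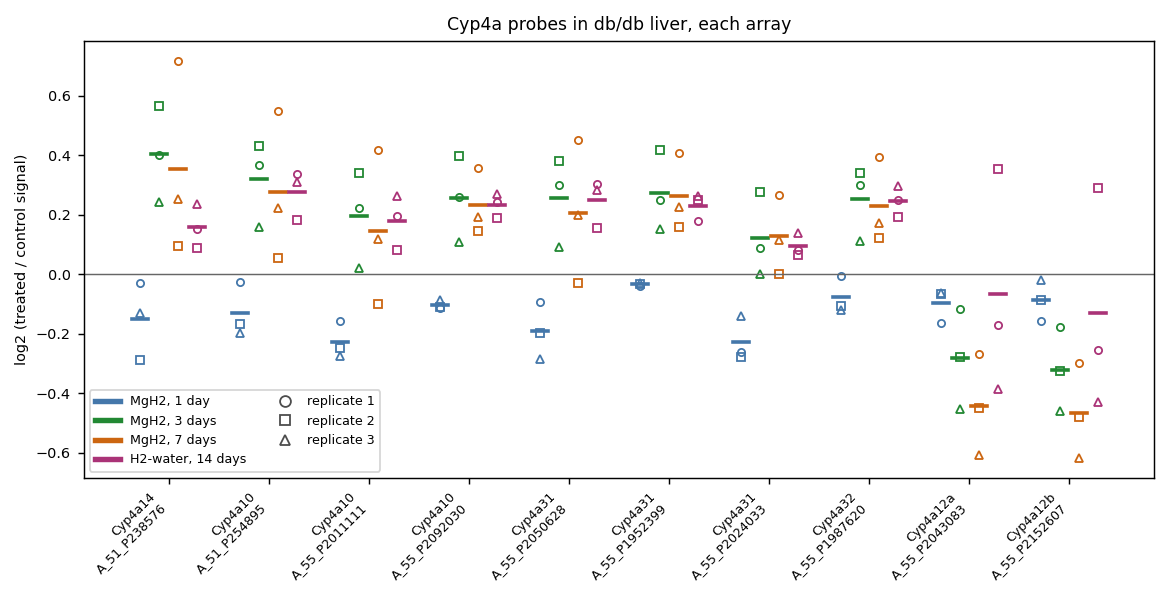
Log2 ratio of treated over control signal (vertical axis) for each of the 10 Cyp4a probes (horizontal axis) on each of the 12 arrays. Colors mark the groups, symbols the replicate numbers and short bars the mean of 3 arrays. All points of 1 day lie below 0 as deposited (with normexp and loess the means of Cyp4a14 and A_51_P254895 were 0.01 and 0.01), the points of the 8 Cyp4a10, Cyp4a14, Cyp4a31 and Cyp4a32 probes at 3 days lie above 0, and replicate 2 of 14 days is the only array on which the Cyp4a12 probes lie above 0.

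Cyp4a14 had the highest mean ratio of the 10 probes after 3 and 7 days. After 1 day of MgH2, its log2 ratios were −0.03, −0.29 and −0.13. After 3 days they were 0.40, 0.57 and 0.24, and after 7 days 0.72, 0.10 and 0.25. All 3 arrays of 3 days and of 7 days thus lay above all 3 arrays of 1 day, as for 10.4% and 15.3% of all probes tested. Neither difference from 1 day was called (limma, adjusted P=0.133 and 0.0663). The arrays of 7 days were the most spread out, with replicate 1 far above the others. In limma, Cyp4a14 was higher than control after 3 days (1.32-fold, log2 0.40 ± 0.10 SE, adjusted P=0.0207) and after 7 days (1.28-fold, 0.36 ± 0.10, adjusted P=0.0281). After 1 day the mean was −0.15 ± 0.10 (adjusted P=0.408). With fewer arrays in the fit, the call at 3 days was lost without replicate 1 or replicate 2 (0.41 and 0.32, adjusted P=0.0733 and 0.132), and that at 7 days without replicate 1 or replicate 3 (0.17 and 0.41, adjusted P=0.184 and 0.0667). Of these, only leaving out replicate 1 of 7 days moved the estimate by over 1.5 times.

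Cyp4a10, the neighbour of Cyp4a14 and like it a PPARα target, was read by 3 probes. For its brightest probe, A_51_P254895, the ratios were −0.03, −0.17 and −0.20 after 1 day, 0.37, 0.43 and 0.16 after 3 days, and 0.55, 0.06 and 0.22 after 7 days. Its means of 0.32 ± 0.08 SE after 3 days and 0.28 ± 0.08 after 7 days were called (limma, adjusted P=0.0228 and 0.0338). The call at 3 days was lost without replicate 1 or replicate 2 (0.30 and 0.26, adjusted P=0.0975 and 0.136), and that at 7 days without replicate 1 or replicate 3 (0.14 and 0.30, adjusted P=0.234 and 0.0910). The second probe, A_55_P2092030, had ratios of −0.11, −0.11 and −0.09 after 1 day, 0.26, 0.40 and 0.11 after 3 days, and 0.36, 0.15 and 0.19 after 7 days. It was called higher at both later times as well (adjusted P=0.00974 and 0.0112). The third, A_55_P2011111, lay below the brightest probe on all 12 arrays, by 0.11 on average, and was called at no time. Its mean was 0.19 after 3 days (adjusted P=0.137) and 0.15 after 7 days (adjusted P=0.240). The 3 probes correlated over the 12 arrays (Spearman's rho 0.937 to 0.979, as a description) but differed in whether they passed, and at 1 day in the order of the replicates.

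Cyp4a31 and Cyp4a32, which lie beyond Cyp4a10 in the cluster and are less well described enzymes, were also lowest after 1 day. The Cyp4a32 probe had ratios of −0.01, −0.11 and −0.12 after 1 day, 0.30, 0.34 and 0.11 after 3 days, and 0.39, 0.12 and 0.17 after 7 days. It was called higher after 3 days (1.19-fold, adjusted P=0.0140) and after 7 days (1.17-fold, adjusted P=0.0161). The call at 3 days was lost without replicate 1 or replicate 2 (0.23 and 0.21, adjusted P=0.0707 and 0.0960). At 7 days, without replicate 1 the log2 mean of 0.23 became 0.15 (adjusted P=0.118). Of the 3 Cyp4a31 probes, A_55_P2050628, the brightest, had ratios of −0.09, −0.20 and −0.28 after 1 day, 0.30, 0.38 and 0.09 after 3 days, and 0.45, −0.03 and 0.20 after 7 days. It passed after 3 days by a narrow margin (0.26 ± 0.08, adjusted P=0.0496) and not after 7 days (0.21 ± 0.08, adjusted P=0.0894). A_55_P1952399 was called higher at both times (0.27 and 0.26, adjusted P=0.00780 and 0.00653). A_55_P2024033, the dimmest of the 3, was not called higher at either time, but was the only Cyp4a probe called after 1 day, when it was lower (−0.23 ± 0.06, adjusted P=0.0428).

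In all, 1 of the 10 probes was called after 1 day, against 9.39% of the 19660 probes tested, 4.24% lower. After 3 days, 6 were called, all higher, and none was lower. Of all 19414 probes tested, 23.4% were called, 12.3% higher. After 7 days, 5 were higher and 2 lower, where 29.5% of 19455 probes were called, 15.3% higher and 14.3% lower. All 10 probes were below 0 on every array of 1 day, as were 22.4% of all probes. All 8 probes of the first set were above 0 on every array of 3 days, as were 26.6% of all probes, and 6 of them on every array of 7 days (30.5%). The 2 Cyp4a12 probes were below 0 on every array of 3 and of 7 days, as were 26.3% and 27.9% of all probes. The probes of one gene, and of close relatives, may read the same RNA, so these counts are not counts of separate events. Each array of the 3 times was compared with a control pool that may be shared, as stated above.

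Cyp4a12a, the male-predominant gene, moved the other way. Its ratios were −0.16, −0.07 and −0.06 after 1 day of MgH2, −0.12, −0.28 and −0.45 after 3 days, and −0.27, −0.45 and −0.61 after 7 days. The arrays of 7 days all lay below those of 1 day, as for 13.2% of all probes tested at both times, while those of 3 days overlapped with both. Cyp4a12b, its closest relative in the cluster, had ratios of −0.16, −0.09 and −0.02, then −0.18, −0.33 and −0.46, then −0.30, −0.48 and −0.62, and so kept within a few hundredths of Cyp4a12a at each step. After 7 days both genes were called lower. Cyp4a12a stood at 0.736 times control (log2 −0.44 ± 0.12 SE, adjusted P=0.0199) and Cyp4a12b at 0.724 times control (−0.47 ± 0.12, adjusted P=0.0139). Both calls were lost without replicate 2 (−0.44 and −0.46, adjusted P=0.0758 and 0.0601) or replicate 3 (−0.36 and −0.39, adjusted P=0.129 and 0.0971). After 3 days neither passed (−0.28, adjusted P=0.116, and −0.32, adjusted P=0.0705), and after 1 day neither did (−0.10 and −0.09, adjusted P=0.659 and 0.688).

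The separate channels were compared as well, since a ratio can move through either. After quantile normalisation between arrays, the log2 control signal of Cyp4a12a was 14.26 ± 0.10, 14.24 ± 0.12 and 14.23 ± 0.08 (SD, n = 3) at 1, 3 and 7 days. The treated signal was 14.16 ± 0.16, 13.95 ± 0.05 and 13.79 ± 0.10 at these times. For Cyp4a14, the control signal was 16.47 ± 0.12, 16.25 ± 0.11 and 16.24 ± 0.18 and the treated signal 16.32 ± 0.14, 16.65 ± 0.08 and 16.60 ± 0.19. The Cyp4a12a controls stayed within their spread over the 3 times, and the treated mean was lower at each later time. The control pools may be the same RNA at the 3 times. In that case, level control signals are no observation of control livers over time. The mean Cyp4a14 control was higher at 1 day than at the later times, while its treated mean was lower. In bulk liver RNA, fewer cells of one type and less RNA per cell cannot be told apart.

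**Figure D2:**
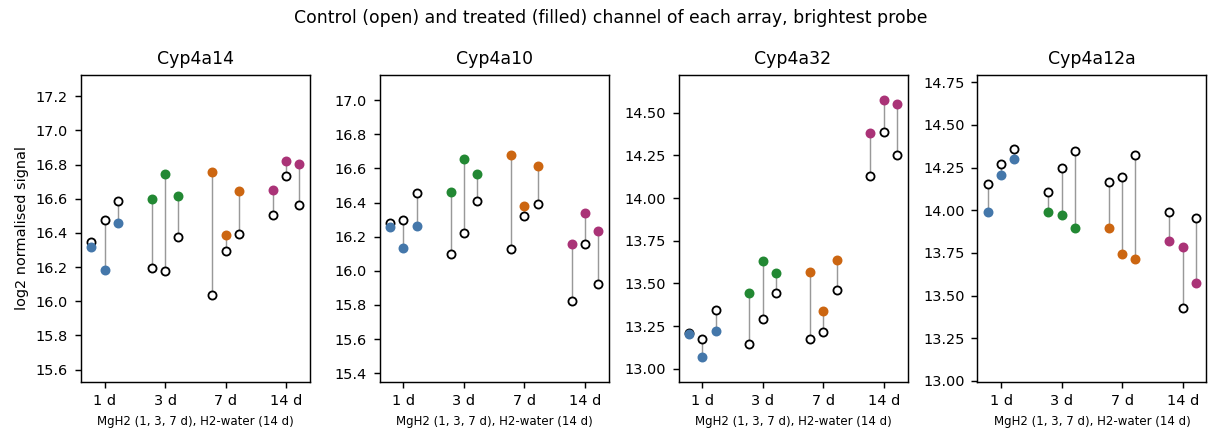
Log2 signal after quantile normalisation between arrays (vertical axis) of the control channel (open circles) and the treated channel (filled circles) of each array, joined by a line, for the brightest probe of 4 genes; each panel spans the same log2 range and is labelled by day, and within a day the arrays stand in the order of their replicate numbers. For Cyp4a12a the control circles of 1, 3 and 7 days, whose pools may be shared, stay near 14.2 while the treated means go from 14.16 to 13.79. Replicate 2 of 14 days has a control far below the other arrays of that day.

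Markers of other cells moved with some of these groups. The 6 Kupffer cell and leukocyte markers were all above background, and their median log2 ratio was −0.13, −0.39 and −0.44 after 1, 3 and 7 days of MgH2 and 0.03 after 14 days of H2-water. At 7 days, their summed signal was 10500 to 12700 in the control pools and 7990 to 8640 in the treated pools. At 3 days it was 9930 to 13200 and 7400 to 9760. The 5 red blood cell markers, all above background, had medians of −0.12, −0.16, −0.51 and −0.19. Their summed signal in the treated pools lay inside the control range at 3 days (122000 to 128000 against 84500 to 153000). The same held at 7 days (94300 to 126000 against 81100 to 167000). Of 7 acinar pancreas markers, 2 were above background on all arrays of each group, with medians of −0.08, −0.10, 0.01 and −0.04. Of the 4 adipocyte markers, Adipoq, Plin1 and Lep were well above background in both channels on no array. The values of −0.72, −2.09, −2.92 and 1.03 rest on the fourth, Cfd, alone. The 4 were dim: at 7 days their summed signal was 78.3 to 557 in the control pools and 47 to 60.6 in the treated pools. The control pools thus differed widely. The hepatocyte markers summed to 383000 to 497000 in these control pools. None of 4 kidney markers was above background on all arrays of an MgH2 group, kidney being the other main site of Cyp4a12 expression. The hepatocyte markers had medians of 0.06, 0.14, 0.24 and −0.09. Of 3 stellate cell markers, 2 were above background, with medians of 0.20, −0.38, −0.47 and −0.01. Of 3 cholangiocyte markers, 2 were above background on all arrays of 1 day and 1 on all arrays of each other group. The values of −0.08, −0.26, −0.45 and −0.21 rest on these alone, and so on a single marker after 3, 7 and 14 days. Epcam, a defining marker, was well above background in both channels on no array. The part of other cells in the Cyp4a ratios was not tested.

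Whether the response differed between days was tested as a difference of group means in the same fit, without a block for the replicate number. From 1 to 3 days, the estimates of the 8 Cyp4a10, Cyp4a14, Cyp4a31 and Cyp4a32 probes ran from 0.31 to 0.55. Their 3 arrays of 3 days all lay above the 3 arrays of 1 day for all 8 probes, as was the case for 10.4% of the 19210 probes tested. None was called (adjusted P 0.0980 to 0.163), where 0.0208% of all probes were, although all 8 had an unadjusted P under 0.05, as did 15.4% of all probes. With the replicate number as a block, 1 was called, Cyp4a32 (adjusted P=0.0477), and the share of all probes in that fit is not given here. Within the slide that carried both times, with replicate 1 as the only array of 3 days, the difference of Cyp4a14 was 0.55 and that of Cyp4a12a −0.02.

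From 1 to 7 days the estimates of the 8 probes were 0.30 to 0.50, and again no array of 7 days overlapped with those of 1 day, as for 15.3% of the 19153 probes tested. The Cyp4a10 probe A_55_P2092030 (0.34 ± 0.08 SE, adjusted P=0.0332) and the Cyp4a31 probe A_55_P2024033 (0.35 ± 0.08, adjusted P=0.0360) were called higher, where 6.98% of all probes were called, 3.28% higher. Cyp4a14 had the largest estimate of all 10 (0.50, 95% interval 0.18 to 0.83) and an adjusted P of 0.0663. With the replicate number as a block, 7 of the 10 were called. The share of all probes called in that fit is not given here, so this count cannot be set against all probes. For Cyp4a12a the difference was −0.35 (95% interval −0.72 to 0.03, adjusted P=0.237) and for Cyp4a12b −0.38 (−0.74 to −0.02, adjusted P=0.181), so a fall between these days was not shown. Between 3 and 7 days no Cyp4a probe was called, nor was any of the 19087 probes tested (0%) by limma, with 4.74% at an unadjusted P under 0.05. The estimates of the 10 probes were −0.16 to 0.01 there, and the interval for Cyp4a14 ran from −0.37 to 0.28.

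**Figure D3:**
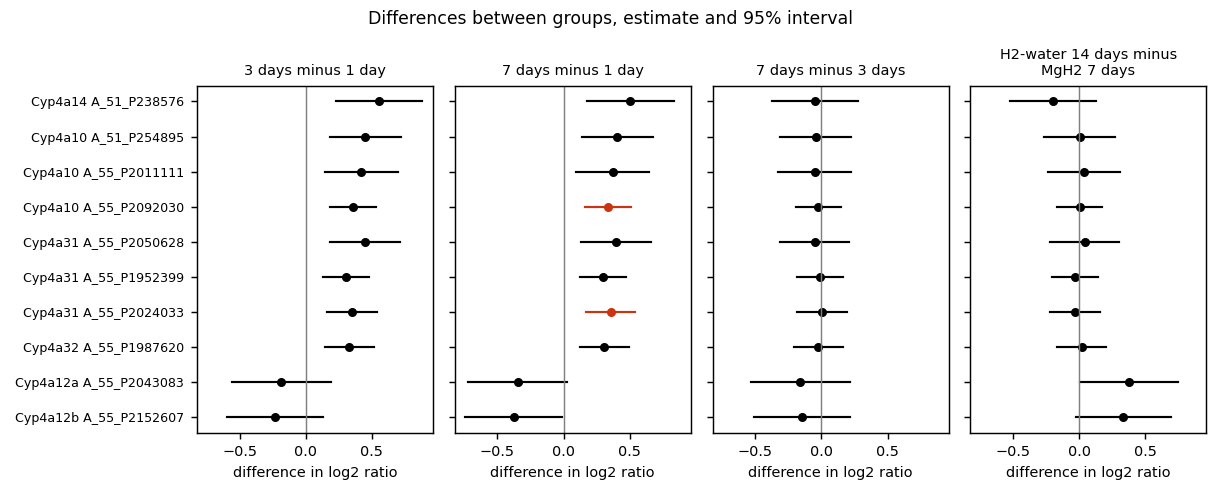
Difference in mean log2 ratio between groups (horizontal axis) with its 95% interval for each Cyp4a probe (rows), in 4 panels. Red marks the 2 probes called at an adjusted P under 0.05, both in 7 days minus 1 day. The intervals of the first 8 probes lie above 0 in the 2 panels against 1 day and include 0 in the other 2 panels.

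After 14 days of H2-water, the first set of probes was again above its controls. Cyp4a32 had ratios of 0.25, 0.19 and 0.30, and the Cyp4a10 probe A_55_P2092030 had 0.24, 0.19 and 0.27. The Cyp4a10 probe A_51_P254895 had 0.34, 0.18 and 0.31. These arrays were closer together than those of 7 days of MgH2, with an SD of 0.05 against 0.14 for Cyp4a32. In limma, 3 probes were called, all higher: Cyp4a32 (1.19-fold, adjusted P=0.0315), A_55_P2092030 of Cyp4a10 (1.18-fold, adjusted P=0.0296) and A_55_P1952399 of Cyp4a31 (1.17-fold, adjusted P=0.0330). Of all 20411 probes, 8.84% were called, 4.92% higher. All 8 probes were above 0 on every array (26.3% of all probes). Cyp4a14 was not among those called, with ratios of 0.15, 0.09 and 0.24 (mean 0.16 ± 0.11 SE, adjusted P=0.401). Leaving out any 1 of the 3 arrays of 14 days left 0 probes called.

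The Cyp4a12 genes did not keep 1 direction after H2-water. Cyp4a12a had −0.17, 0.35 and −0.38 and Cyp4a12b had −0.26, 0.29 and −0.43. Replicate 2 stood above its control while the other arrays stood below. On that array the control signal of Cyp4a12a was 13.43 on the log2 scale, against 13.99 and 13.96 on the other arrays of 14 days. The treated signals of the 3 arrays spanned 13.57 to 13.82. The means were −0.07 (adjusted P=0.791) and −0.13 (adjusted P=0.551), and the sign depended on single arrays. Without replicate 1 they were −0.02 and −0.07, without replicate 2 −0.28 and −0.34, and without replicate 3 0.09 and 0.02.

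Against 7 days of MgH2, none of the 10 probes was called at 14 days of H2-water, where 6.61% of the 18674 probes tested were. For Cyp4a10 A_51_P254895 the difference was 0.00 (95% interval −0.26 to 0.27) and for Cyp4a14 −0.20 (−0.52 to 0.13). Cyp4a12a was higher by 0.38 (interval 0.00 to 0.75, adjusted P=0.198). The agent, its route, the controls, the days, the slide and the software version all differ between these groups and cannot be told apart. The control livers of the experiments could not be compared for these genes. The log2 control signal under gavage minus that under water was 0.32 for A_51_P254895 and −0.24 for A_55_P2092030, which read the same gene, and 79.4% of all probes were called there. Under scaling to the 75th percentile, 4 of the 10 probes changed sign.

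The 2 sets were compared array by array. Over the 12 arrays, the log2 ratios of the 8 probes of Cyp4a10, Cyp4a14, Cyp4a31 and Cyp4a32 correlated with each other at Pearson's r of 0.889 to 0.993. Those of Cyp4a12a and Cyp4a12b correlated at 0.990. Between the sets r was −0.379 to −0.176. Within the first set, r was 0.950 to 0.990 among the 3 probes of Cyp4a10 and 0.909 to 0.974 among the 3 of Cyp4a31, both inside the range between its genes, 0.889 to 0.993. These points share pools, dyes and possibly controls, and are given as a description. The mean of the first set minus that of the Cyp4a12 probes was 0.07, −0.10 and −0.12 on the arrays of 1 day, 0.42, 0.70 and 0.57 at 3 days and 0.73, 0.52 and 0.80 at 7 days. At 14 days it was 0.43, −0.17 and 0.67. At 1 day both sets were thus below 0, and on replicate 2 of 14 days both were above 0, with the Cyp4a12 probes the higher.

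**Figure D4:**
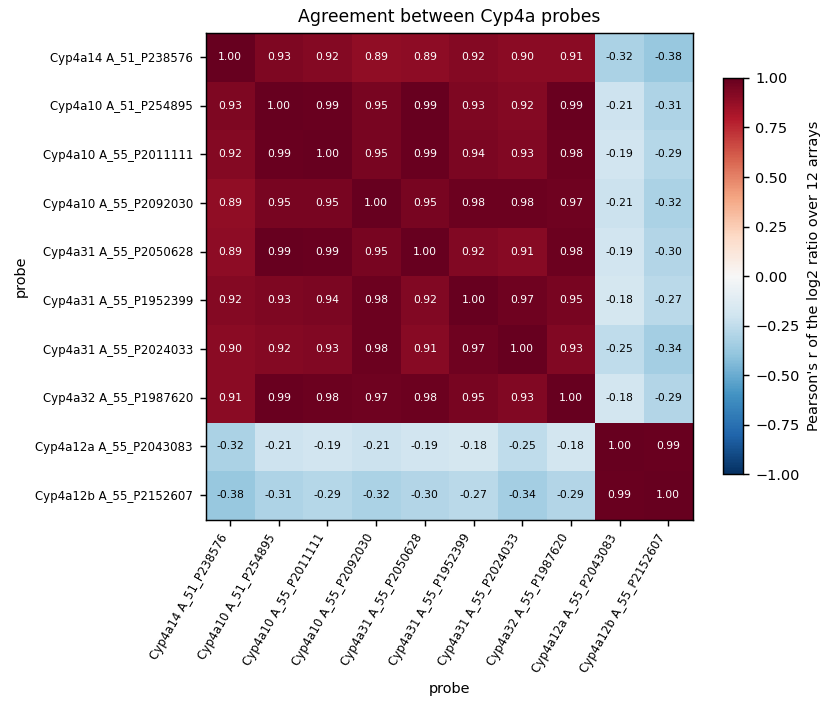
Pearson's r of the log2 ratio over 12 arrays for each pair of Cyp4a probes (both axes), colored from −1 to 1 with the value printed. The first 8 probes form 1 block with r of at least 0.889, Cyp4a12a and Cyp4a12b a second with r 0.990, and all values between the blocks are below 0.

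Other genes followed the brightest probes over the 12 arrays, chosen among 4988 genes whose ratio varied. With Cyp4a10 the closest were Mcrip2, Sfta2 and Hsd17b7 (r 0.90 each) and then Cyp2a4 and Tuba8 (0.88 each). With Cyp4a14 they were Tatdn2 (0.93), 1700029J07Rik and Tamm41 (0.91 each), Selenov (0.90) and Ppil3 (0.89). With Cyp4a12a they were Myo1g (0.92), Ntn3 (0.87), and Il10ra, Cep250 and Yeats2 (0.86 each). Of the neighbours in the cluster, Cyp4a29 and Cyp4x1 were above background in both channels on 0 arrays and Cyp4a30b on 3.

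The other steps of omega-oxidation were followed in a list of 23 genes, which holds the Cyp4f family, Por, the reductase that supplies electrons to microsomal P450 enzymes, and the dehydrogenases that act on omega-hydroxy acids. Of 16 tested, 0 were called after 1 day, and 3 were lower and none higher after 3 days. Of 17 tested after 7 days, 2 were higher and 2 lower. Among all probes, 9.39% were called after 1 day. After 3 days 12.3% were called higher and 11.1% lower, and after 7 days 15.3% and 14.3%. The list's median was −0.06 after 3 days and 0.00 after 7 days, against 0.00 and 0.01 for all probes. Por had ratios of 0.82, 0.38 and 0.34 after 7 days (mean 0.51, adjusted P=0.0319), and Cyp4f16 rose by 0.18 (adjusted P=0.0382). Adh4, an alcohol dehydrogenase of omega-hydroxy acids, had −0.72, −0.32 and −0.41 after 3 days and −0.89, −0.30 and −0.57 after 7 days. It was called lower at both times (means −0.49 and −0.59, adjusted P=0.0156 and 0.00478). Aldh3a2, the fatty aldehyde dehydrogenase that follows it, was lower after 7 days of MgH2 (−0.23, −0.27 and −0.18, adjusted P=0.00405) and higher after 14 days of H2-water (0.38, 0.24 and 0.29, adjusted P=0.00337). The difference of Aldh3a2 between these groups was 0.53 (adjusted P=0.00690). After 3 days no Cyp4f gene, Cyp4b1 or Cyp4v3 was called, and after 14 days Cyp4f17 was lower (−0.14, adjusted P=0.0338).

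Peroxisomal use of dicarboxylic acids was covered by 26 genes. After 7 days of MgH2, 15.3% of all probes were called higher and 14.3% lower. Of 25 tested in the list, 2 were higher and 4 lower, with a median of −0.05 against 0.01 for all probes. Nudt7, a peroxisomal CoA diphosphatase, was the lowest of them (−1.23, −0.86 and −0.68, adjusted P=0.00401), followed by the thiolase Acaa1b (−0.21, −0.65 and −0.55, adjusted P=0.00628). Acox2 and Eci2 were called higher after 3 and 7 days. After 3 days the counts were 2 higher and 2 lower, and after 1 day 1 higher and 2 lower, of 25 tested. The shares of all probes were 12.3% higher and 11.1% lower after 3 days, and 5.15% and 4.24% after 1 day. After 14 days of H2-water, 4.92% of all probes were called higher and 3.91% lower. In the list, 4 of 24 were higher and none lower, with a median of 0.09 against 0.00 for all probes. Ehhadh, an enzyme of peroxisomal beta-oxidation, had ratios of 0.32, 0.30 and 0.29 (adjusted P=0.00418). The thiolase Acaa1a (0.25) and the peroxisomal transporter Abcd3 (0.16) were also among them.

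Other targets of PPARα were called in both directions under MgH2. Of 27 tested, 5 were higher and 4 lower after 3 days, where 12.3% of all probes were called higher and 11.1% lower. After 7 days 6 were higher and 5 lower, where the shares of all probes were 15.3% and 14.3%. The medians were −0.05 and −0.05, against 0.00 and 0.01 for all probes. After 1 day, 1 was higher and 4 lower, where the shares of all probes were 5.15% and 4.24%. Cpt1a, which admits fatty acids to mitochondria, had ratios of 0.28, 0.39 and 0.32 after 3 days and 0.41, 0.38 and 0.47 after 7 days (adjusted P=0.00115 and 0.000196). Angptl4, an inhibitor of lipoprotein lipase, had means of 0.50 and 0.59 (adjusted P=0.0187 and 0.00688). Creb3l3, a transcription factor of hepatic lipid metabolism, and the fatty acid transporter Slc27a1 were also called higher at both times. In contrast, Fabp1, the liver fatty acid binding protein, had −0.64, −0.75 and −0.53 after 7 days (adjusted P=0.000306). Ucp3, a mitochondrial carrier, had −0.55, −0.63 and −0.38 (adjusted P=0.000389). Plin2, Fads2 and Vnn1 were the others called lower at 7 days. After 14 days of H2-water, 4.92% of all probes were called higher and 3.91% lower. Of the 27 targets tested, 4 were higher and 1 lower, with a median of 0.15 against 0.00 for all probes. Vnn1, a pantetheinase, was among the higher ones (0.55, 0.39 and 0.50, adjusted P=0.000571), having been lower after 7 days of MgH2 (−0.34, adjusted P=0.00132), and the difference of 0.82 passed as well (adjusted P=0.00174).

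**Figure D5:**
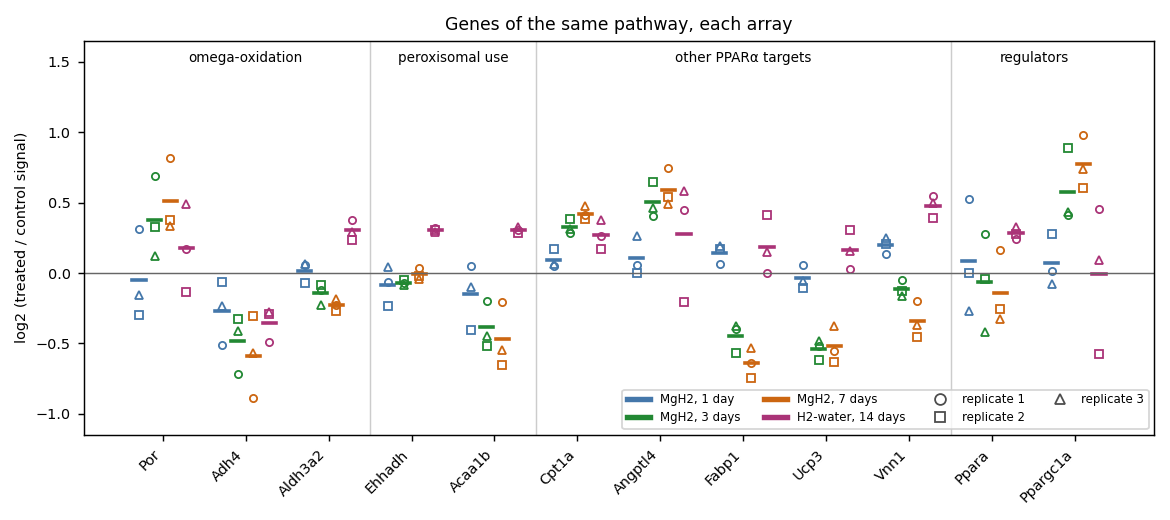
Log2 ratio of treated over control signal (vertical axis) on each array for 12 genes of omega-oxidation, peroxisomal use, other PPARα targets and regulators (horizontal axis), with colors, symbols and mean bars as for the Cyp4a probes. Cpt1a and Angptl4 lie above 0 on all arrays of 3 and 7 days, Fabp1 and Ucp3 below, and Ehhadh and Vnn1 lie above 0 on all 3 arrays of 14 days.

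Of 19 receptors and cofactors tested, 3 were higher after 3 days and 5 after 7 days, and none was lower. Among all probes, 12.3% and 15.3% were called higher at these times and 11.1% and 14.3% lower. After 1 day 2 of the list were higher (5.15% of all probes). After 14 days, with 18 tested, 1 was higher and 1 lower (4.92% and 3.91% of all probes). The receptor gene itself, Ppara, had ratios of 0.27, −0.04 and −0.42 after 3 days and 0.16, −0.26 and −0.33 after 7 days, so its arrays lay on both sides of 0 and it was not called (adjusted P=0.806 and 0.530). After 14 days its ratios were 0.24, 0.28 and 0.33, with a mean of 0.28 ± 0.16 SE that did not pass (adjusted P=0.312). Ppargc1a, which encodes the coactivator PGC-1α, had 0.42, 0.89 and 0.43 after 3 days and 0.98, 0.60 and 0.74 after 7 days (adjusted P=0.0330 and 0.00768). Lpin1, which acts with PGC-1α on PPARα targets, had means of 0.67 and 0.68 (adjusted P=0.0224 and 0.0173). After 14 days of H2-water, Ppargc1a had 0.46, −0.58 and 0.09 and was not called.

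Since Cyp4a12a is expressed mainly in males, 19 other genes with male-predominant and 20 with female-predominant expression in mouse liver were set beside it. Among all probes, 12.3% were called higher and 11.1% lower after 3 days, and 15.3% and 14.3% after 7 days. After 1 day 9.39% were called, and after 14 days 3.91% were lower. Of the male list, 0 of 17 tested were called after 1 day, 1 of 16 lower after 3 days and 0 of 16 after 7 days. After 14 days 1 of 17, Cyp7b1, was lower (−0.77, −0.30 and −0.27, adjusted P=0.0334). The list's median was 0.36, 0.08, −0.09 and −0.37 in the 4 groups. Arrays of 1 group differed widely: Slco1a1, a hepatic organic anion transporter, had −1.03, 2.81 and 2.30 after 1 day and −2.26, 1.81 and 0.13 after 7 days. Of the female list, 0 of 16 tested were called after 1 day, 2 of 15 were higher after 3 days and 4 of 16 after 7 days, and 1 of 16 was lower after 14 days. At 7 days these included Cyp39a1 (adjusted P=0.000236), Sult1e1 (1.24, 0.22 and 0.43, adjusted P=0.0471) and Cyp2a4 (0.65, 0.47 and 0.44, adjusted P=0.0197). Of the 16 genes of the male list tested after 7 days, only C8a and Cyp2u1 were below 0 on every array, as were 27.9% of all probes. C8a had −0.90, −0.18 and −0.26 (adjusted P=0.0656) and Cyp2u1 −0.40, −0.26 and −0.25, and neither was called at 7 days. Whether C8a and Cyp2u1 differed from the Cyp4a12 genes was not tested.

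Leaving out 1 array, which also leaves fewer arrays in the fit, lost calls in every group, in most cases with estimates that moved by less than 1.5 times. Without replicate 2 of 3 days 0 of 10 probes were called at that time, without replicate 1 there were 2, and without replicate 3 there were 5. At 7 days, leaving out replicate 1 left 2 calls, both of the Cyp4a12 genes, without replicate 2 there were 6, all higher, and without replicate 3 there were 3, all higher. The spread shared by all 12 arrays mattered too: when each group was fitted on its own 3 arrays, 0 probes were called at 3 days and 2 at 7 days.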

How the data were processed

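The authors' Feature Extraction wrote the intensity of each spot and deposited it background-corrected and dye-normalized within each array (linear and lowess). The labels name version 10.10.1, and the file headers give 10.10.1.1, or 10.7.3.1 for the 14 day arrays. The log2 values of the deposited series table are the deposited log10 ratio on the log2 scale (largest difference 1.4e-06), which served as an alternative, and the raw median intensities deposited beside them served for normexp (offset 50). No column of the authors' p-value was used for a call.

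Control spots and marked spots were left out and spots of a probe averaged. The ratio used is log2 of the deposited Cy5 over Cy3 processed intensity. Of 39429 probes, 26761 were named through RefSeq records. All 12 arrays were fitted with limma 3.58.1 (R 4.3.3), 1 mean per group, without a block, on probes that every array compared showed well above background for Cy3 and Cy5; the fit was tested on simulated data. Group means were tested against 0 and differences as contrasts, two-sided. A fold is 2 to the power of the log2 estimate. Levels per channel were quantile-normalized on the average signal. Other genes are represented by their brightest probe. Same-numbered arrays of 1, 3 and 7 days also correlated in their ratios (r 0.368 to 0.655 over 9 pairs). This pairing was seen in the data and is not given by the labels. The main fit did not use it, and a fit with the replicate number as a block was an alternative. P-values measure the spread between pools. The methods' t-test was an alternative. The members, gene lists and the rule for genes named (all Cyp4a probes, genes of the lists, and for the brightest Cyp4a10, Cyp4a14 and Cyp4a12a probes the 5 genes most alike with an SD over arrays of at least 0.15) were chosen with earlier results of these data known. Some genes of the lists are counted but not reported by name here.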

Additional observations from a re-analysis of the deposited data

Results flagged for a closer look

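Between 1 and 7 days of MgH2, the difference in log2 ratio passed the test for the Cyp4a10 probe A_55_P2092030 (0.34, limma adjusted P=0.0332) and the Cyp4a31 probe A_55_P2024033 (0.35, adjusted P=0.0360). Each of these was lower than its controls on all 3 arrays of 1 day.

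For 8 probes, all 3 arrays of 1 day of MgH2 lay below 0 and all 3 arrays of 14 days of H2-water above 0, and this difference was not tested. Of all probes, 22.4% were below 0 on every array of 1 day and 26.3% above 0 on every array of 14 days. The share with both was not counted, and the 8 probes may read the same RNA. The probe values are as deposited, and with normexp and loess the 1 day means of Cyp4a14 and A_51_P254895 were 0.01 and 0.01. The mean of 14 days minus that of 1 day was 0.41 for A_51_P254895 and 0.41 for A_55_P2011111 of Cyp4a10, and 0.34 for A_55_P2092030 of the same gene. It was 0.31 for Cyp4a14 and 0.32 for Cyp4a32. For Cyp4a31 it was 0.44 for A_55_P2050628, 0.32 for A_55_P2024033 and 0.26 for A_55_P1952399.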

How the results depend on the processing

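The counts of Cyp4a probes called were 1, 6, 7 and 3 of 10 after 1, 3 and 7 days of MgH2 and 14 days of H2-water. Without the filter on dim probes they were 0, 2 and 0 at 1, 3 and 14 days. With a fit of the compared arrays alone they were 0, 0, 2 and 0. Leaving out 1 replicate of a group gave 0 to 0, 0 to 5, 2 to 6 and 0 to 0. The methods' t-test gave 2 at 1 day and 2 at 7 days unadjusted, and 0 in every group after Benjamini-Hochberg adjustment. Normexp with loess gave 5 at 14 days. From 1 to 7 days (2 called), normexp gave 7, no filter 0, the compared arrays alone 0, the replicate block 7, the slide as a random block 7 (with an estimated correlation within slides of −0.08), and leaving out 1 replicate 0 to 6. From 1 to 3 days (0 called) the replicate block gave 1. The block moved no other count by over 1.5 times. The shares of all probes called under these alternatives are not given here, so these counts cannot be set against all probes. Within slides the counts are no check, since on the slide shared by 1 and 3 days the latter had 1 array. In the control livers, scaling to the 75th percentile reversed 4 probes: A_55_P2011111 from −0.16 to 0.27, A_55_P2092030 from −0.24 to 0.12, Cyp4a14 from −0.28 to 0.22 and A_55_P1952399 of Cyp4a31 from −0.14 to 0.16. The cause of these shifts was not tested. With normexp and loess, the 1 day means of Cyp4a14 and A_51_P254895 turned from −0.15 to 0.01 and from −0.13 to 0.01. No log2 ratio called in a comparison with control reversed under any alternative that was run. Signal over background did not limit these probes.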
